A study of Homo sapiens with 12 samples.

Results

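KLF3, KLF4, KLF5, KLF6, KLF9, KLF10, KLF11, KLF13, KLF15 and KLF16 are 10 genes of the Krüppel-like factor (KLF) family. They were picked by gene symbol from a table of 20114 genes, and all 10 were among the 13872 genes that passed the filter on low counts. RNA was measured in T47D, an established line of human breast carcinoma that is widely used for its abundant progesterone receptor. All 6 groups, vehicle included, were cells of this line left to attach overnight in phenol red-free medium with charcoal-stripped serum and then starved of serum. The groups were vehicle, 100 pM and 10 nM of progestin, each harvested after 6 h and after 18 h. The series title speaks of progestins and the labels give the doses, but they name no compound. Each group held 2 libraries, numbered replicate 1 and replicate 3. Nothing in the labels says that these came from separate cultures, so p-values measure the spread between these libraries, which may be technical. In RNA from whole cultures, fewer cells that express a gene and less of its RNA per cell cannot be told apart.

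KLF proteins bind GC boxes and CACCC boxes in DNA through zinc fingers at their C-terminal end, and the related SP proteins bind the same boxes. Their N-terminal ends differ and decide which partner is recruited. KLF3, like KLF8 and KLF12, binds the corepressor CtBP. KLF4, KLF5 and KLF6, like KLF7, bind acetyltransferases and mostly activate transcription. KLF9, KLF10, KLF11, KLF13 and KLF16 bind the SIN3A corepressor. KLF15 is best known from liver, muscle and heart as a factor of amino acid and glucose metabolism, and KLF9 and KLF15 are textbook targets of the glucocorticoid receptor, a close relative of the progesterone receptor. KLF9 is also known as a partner of the progesterone receptor in the uterus.

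The libraries held 34204970 to 41373890 counts. FKBP5, a chaperone gene that progestins and glucocorticoids induce, was higher by 4.07 ± 0.41 (log2 fold change ± SE) at 100 pM and by 3.52 ± 0.40 at 10 nM after 6 h, and by 4.49 ± 0.42 and 4.64 ± 0.42 after 18 h. TSC22D3, another such target, differed by 0.70 ± 0.18 (edgeR adjusted p = 0.0912), 3.12 ± 0.19, 1.30 ± 0.18 and 2.89 ± 0.19 in the same order. PGR, the progesterone receptor gene, differed by -0.51 ± 0.29 (edgeR adjusted p = 0.614), -1.85 ± 0.30, -1.66 ± 0.29 and -1.92 ± 0.30. The 10 luminal breast markers, PGR among them, summed to 11369 to 12020 CPM (counts scaled to a common library total) in the vehicle libraries. At 100 pM the sum was 11465 to 11762 CPM after 6 h and 10295 to 11321 CPM after 18 h, with 0 and 4 of the 10 called lower. At 10 nM it was 7111 to 7149 and 5464 to 5561 CPM, with 8 of the 10 called lower at each time. Among all tested genes, 0.606% and 3.89% were called lower at 100 pM after 6 h and 18 h. At 10 nM these shares were 19.4% and 15.2%. Without PGR the marker sum was 9881 to 10174 CPM in vehicle, 9903 to 10695 CPM at 100 pM and 5038 to 6619 CPM at 10 nM. Basal markers summed to 10.1 to 13.2 CPM at 10 nM after 18 h and to 3.34 to 7.20 CPM in the other 10 libraries. Of these, KRT5 read at most 0.0839 CPM in vehicle, 1.76 ± 0.340 CPM (SD, n = 2) at 10 nM after 6 h and 4.69 ± 3.30 CPM at 10 nM after 18 h. The fibroblast sum, mostly COL1A1, was 107 to 120 CPM in vehicle and 72.1 to 82.7 CPM in the progestin libraries of 18 h, while COL1A2 reached at most 0.0271 CPM. Immune markers summed to 2.82 to 5.53 CPM and endothelial markers to at most 0.927 CPM. The share of counts from the 13 mitochondrial genes was 6.69% to 8.29% in the replicate 1 libraries and 8.59% to 10.8% in those of replicate 3, and each progestin library had a lower share than the vehicle library of its time and number. The part of these shifts in the KLF changes was not tested.

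Against vehicle, KLF15 and KLF4 were called higher at both doses and both times. KLF9 was called higher in all of these comparisons except 10 nM at 6 h, where its libraries lay above vehicle without a call. The plot of CPM by library shows the 10 genes side by side. In it, KLF15, KLF9 and KLF4 have the vehicle libraries at the bottom of their panels, and KLF6 has a wide gap between the libraries of each group.

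**Figure D1:**
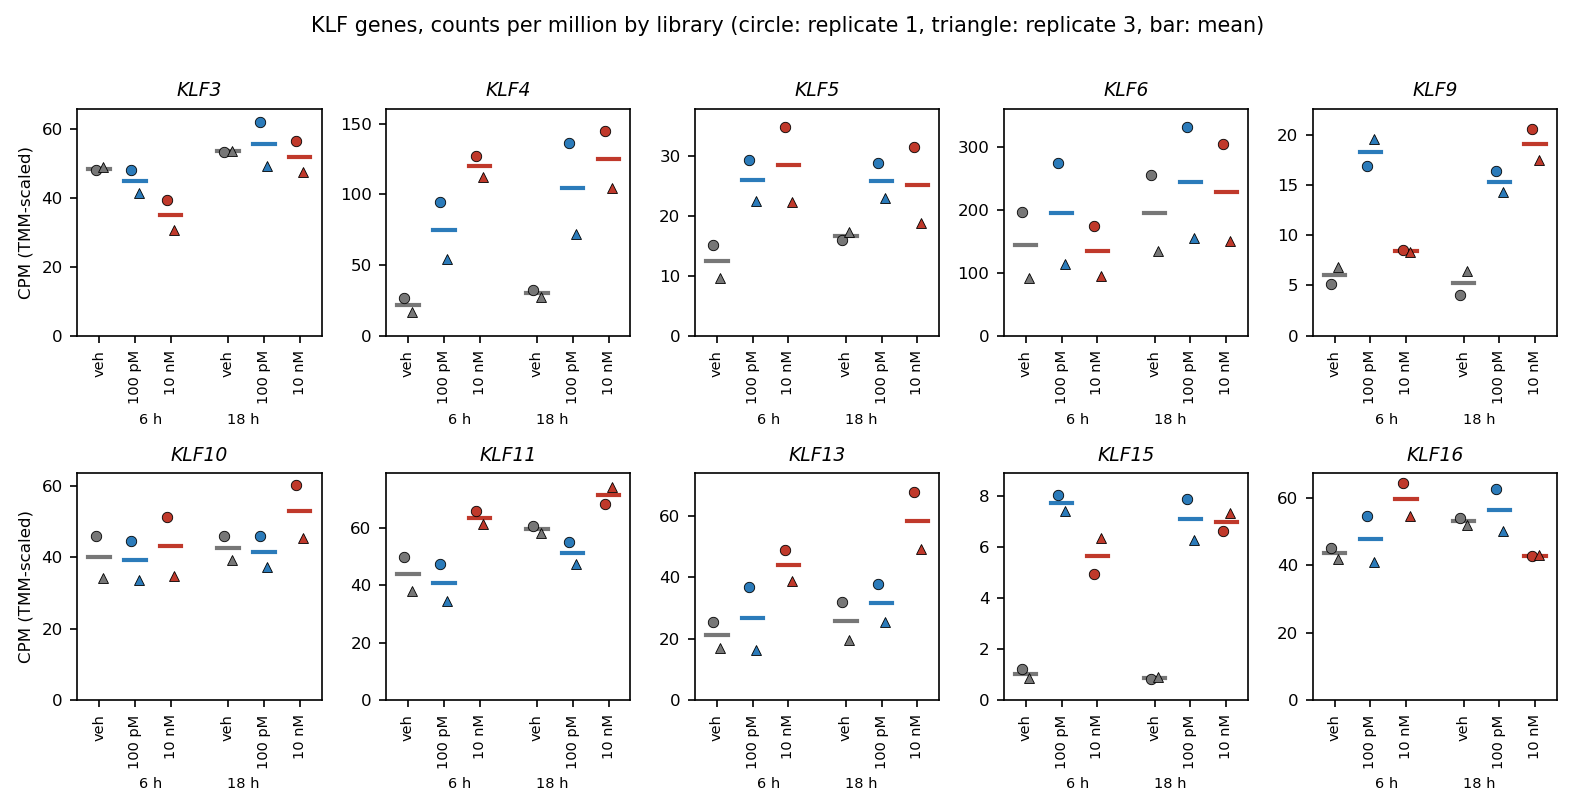
Level of each of the 10 KLF genes (vertical axis, CPM after scaling by TMM, starting at 0) in the 12 libraries, grouped by dose and time on the horizontal axis. Circles are replicate 1, triangles are replicate 3 and bars are the mean of both. KLF15 lies at 0.839 to 1.22 CPM in vehicle and at 4.95 to 8.05 CPM under progestin, while KLF6 has replicate 1 above replicate 3 in 6 of 6 groups.

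At 6 h, 3 of the 10 KLF genes were called higher at 100 pM than in vehicle (KLF4, KLF9 and KLF15) and 0 lower, where 3.48% of all tested genes were called (2.88% higher and 0.606% lower). A call is a Benjamini-Hochberg adjusted p under 0.05 over all genes tested, in edgeR's quasi-likelihood test. This main fit does not pair the replicate numbers, although libraries of the same number deviated together across genes (r of 0.464 to 0.677). A value not called in it is no evidence of no change. At 10 nM, 5 were called higher (KLF4, KLF5, KLF11, KLF15 and KLF16) and 1 lower (KLF3), which is 6 of 10 where 42% of all tested genes were called (22.6% higher and 19.4% lower). At 18 h the same 3 genes, KLF4, KLF9 and KLF15, were called higher at each dose and 0 lower, where 10.5% of all tested genes were called at 100 pM (6.57% higher and 3.89% lower) and 34.1% at 10 nM (19% higher and 15.2% lower). The counts at 100 pM lie above their backgrounds, and the count at 10 nM at 18 h lies close to its own. The 10 genes were chosen with earlier results of these data known, so these counts do not test the KLF family against all genes. Of the 5 other KLF genes tested, 0 were called at 100 pM at either time. The median log2 change of the 10 genes was 0.38 and 0.51 at 6 h and 0.31 and 0.46 at 18 h for 100 pM and 10 nM, beside medians over all tested genes of -0.02, -0.02, -0.03 and -0.00. Both doses are compared with the same vehicle libraries, so these counts are not independent of each other. Groups of 2 libraries often do not overlap, so separation is given below as description only. Against vehicle at 6 h, 36.8% of all tested genes did not overlap at 100 pM and 71.4% at 10 nM (4 and 8 KLF genes). At 18 h the shares were 52.1% and 65.8% (5 and 7 KLF genes). Between the doses they were 68.6% at 6 h and 60.0% at 18 h (7 and 4 KLF genes).

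**Figure D2:**
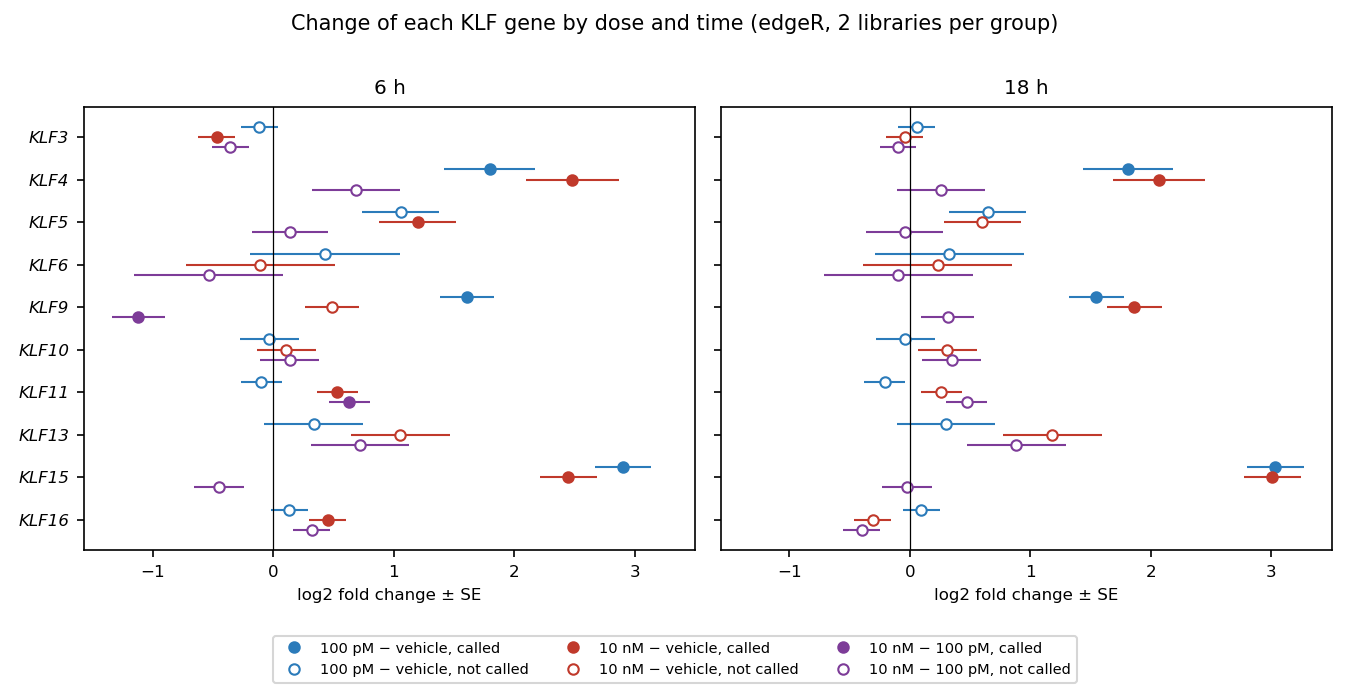
Log2 fold change of each KLF gene at 6 h (left) and 18 h (right), with bars of 1 standard error, for 100 pM against vehicle, 10 nM against vehicle and 10 nM against 100 pM. Filled points have an adjusted p under 0.05. KLF15 and KLF4 have the 2 highest positive values against vehicle in each panel, and KLF9 and KLF11 are the filled points for the doses against each other at 6 h.

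Stretches before transcription starts are given for KLF4, KLF15 and KLF9, the genes called at both times, and for the first of 2 KLF5 starts. They are shown because the receptors of progestins and glucocorticoids bind hexamers of the form TGTTCT, and KLF and SP proteins bind GC boxes. They are from RefSeq on GRCh38.p14, a later build than the hg19 of the counts, and run 5′ to 3′ toward the start. Capitals mark the hexamer TGTTCT, the GC box GGGCGG and the TATA box TATAAA on either strand.
KLF4, chr9:107489770-107490019, minus strand: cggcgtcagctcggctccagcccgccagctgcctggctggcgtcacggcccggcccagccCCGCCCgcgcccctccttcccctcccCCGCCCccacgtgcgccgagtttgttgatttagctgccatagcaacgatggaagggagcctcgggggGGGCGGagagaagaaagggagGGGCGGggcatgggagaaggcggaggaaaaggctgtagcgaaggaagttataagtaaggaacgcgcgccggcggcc
KLF15, chr3:126357443-126357658, minus strand: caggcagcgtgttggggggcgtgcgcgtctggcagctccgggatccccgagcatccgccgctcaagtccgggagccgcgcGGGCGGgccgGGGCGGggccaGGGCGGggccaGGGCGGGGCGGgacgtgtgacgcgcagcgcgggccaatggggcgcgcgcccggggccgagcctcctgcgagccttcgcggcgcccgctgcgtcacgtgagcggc
KLF9, chr9:70414658-70414907, minus strand: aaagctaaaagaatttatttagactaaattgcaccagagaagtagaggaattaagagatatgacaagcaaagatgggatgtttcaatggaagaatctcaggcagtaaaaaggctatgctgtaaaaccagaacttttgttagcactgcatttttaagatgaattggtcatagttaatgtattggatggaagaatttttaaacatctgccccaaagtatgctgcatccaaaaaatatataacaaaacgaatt
KLF5, chr13:73054726-73054975, plus strand: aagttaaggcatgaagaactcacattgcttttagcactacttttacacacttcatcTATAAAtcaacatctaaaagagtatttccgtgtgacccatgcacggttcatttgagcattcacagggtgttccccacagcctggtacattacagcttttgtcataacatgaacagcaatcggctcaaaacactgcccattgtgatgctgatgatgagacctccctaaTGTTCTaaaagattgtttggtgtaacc

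The table of RefSeq promoters held 8 of the 10 genes, with 10 windows of 250 bases before a start. In the KLF4 window the script found 4 GC boxes, and G and C made up 69.2% of it. The KLF15 window had 6 GC boxes and 80.4% G and C. The 216 bases printed hold 5 of them, and the 34 bases nearest the start were left out because an exon of another transcript covers them. The KLF9 window had 32.4% G and C and none of the motifs. In the first of 2 KLF5 windows (40.8% G and C), the one printed, were 1 hexamer, 1 TATA box and no GC box. That hexamer was the only match to TGTTCT in the windows of these 8 genes. The second KLF5 window (70.8% G and C) had 2 GC boxes and neither a hexamer nor a TATA box. Among all 35116 windows in the table, 12.39% held TGTTCT, 42.64% GGGCGG and 10.72% TATAAA. The full steroid receptor site, a pair of hexamers in an inverted repeat, was in 0.3275% of all windows and in none of these 10, and the CACCC box CCACCC was in 31.26% of all windows and in 1 of these 10, that of KLF13. The matches describe letters in these windows only.

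Among the genes with an activating N-terminal end, KLF4 rose most. KLF4 is a factor of epithelial differentiation and growth arrest that is also used in reprogramming to pluripotency. At 6 h it read 26.3 and 16.5 CPM in the vehicle libraries, 94.6 and 54.1 CPM in those of 100 pM, and 127 and 112 CPM in those of 10 nM (replicates 1 and 3 in this order, here and in what follows). By 18 h vehicle held 32.2 and 27.3 CPM, 100 pM 137 and 72.1 CPM and 10 nM 145 and 105 CPM. Every treated library lay above every vehicle library of either time, while at 18 h the libraries of both doses overlapped. KLF4 was higher by 1.80 ± 0.38 at 100 pM (edgeR adjusted p = 0.0368) and by 2.48 ± 0.39 at 10 nM (edgeR adjusted p = 0.00104) after 6 h. After 18 h it was higher by 1.81 ± 0.38 (edgeR adjusted p = 0.0188) and by 2.07 ± 0.38 (edgeR adjusted p = 0.00325). In both replicate numbers the 100 pM library lay above the vehicle library at each time. Over the 9 alternatives the rise at 100 pM was 1.35 to 2.17 at 6 h and 1.28 to 2.20 at 18 h. Its calls were kept with the replicate number as a block. They were not kept in all fits with a library left out, which hold 1 library in a group. At 6 h the call was lost without either vehicle library (edgeR adjusted p = 0.0914 without replicate 1 and 0.266 without replicate 3), without replicate 1 at 100 pM (0.191) and in a fit of the 6 h libraries alone (0.0606). At 18 h it was lost without either vehicle library (0.0980 and 0.116) and without replicate 1 at 100 pM (0.0900). The calls at 10 nM were kept under each of the 9 alternatives at each time. Between doses, 10 nM minus 100 pM was 0.69 at 6 h (95% interval -0.20 to 1.58) and 0.26 at 18 h (-0.63 to 1.14), and neither was called. With the replicate number as a block, the difference at 6 h was called.

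KLF5, a factor that favours growth of epithelial cells and often acts opposite to KLF4, changed less. At 6 h it read 15.2 and 9.71 CPM in the vehicle libraries, 29.3 and 22.6 CPM in those of 100 pM, and 35.0 and 22.3 CPM in those of 10 nM. At 18 h vehicle held 15.9 and 17.3 CPM, 100 pM 29.0 and 23.0 CPM and 10 nM 31.6 and 18.8 CPM. All treated libraries lay above the vehicle libraries of their time, and the libraries of the 2 doses overlapped at both times. KLF5 was called at 10 nM after 6 h only, by 1.20 ± 0.32 (edgeR adjusted p = 0.0164), and whether the response differs between times was not resolved (difference of -0.60, 95% interval -1.70 to 0.50). That call was lost without vehicle replicate 3 (edgeR adjusted p = 0.110) and without replicate 1 at 10 nM (0.115). At 100 pM after 6 h the value was 1.06 ± 0.32 (edgeR adjusted p = 0.157), which DESeq2 called with an adjusted p of 0.0254. After 18 h it was 0.65 ± 0.32 at 100 pM and 0.60 ± 0.32 at 10 nM.

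KLF6, an injury-response factor found in most cells, was the gene whose libraries differed most within a group. At 6 h it read 196 and 92.0 CPM in the vehicle libraries, 275 and 114 CPM in those of 100 pM, and 174 and 94.0 CPM in those of 10 nM. At the later time vehicle held 254 and 134 CPM, 100 pM 332 and 156 CPM and 10 nM 305 and 151 CPM. In all 6 groups replicate 1 was higher, by 1.85 to 2.41 times (median 2.08), a median ratio that 0.519% of all tested genes exceeded. The groups of different dose overlapped throughout, and no comparison was called in the main fit, which does not pair the replicate numbers. In that fit the SE of each difference between 2 groups was near 0.62, so a change of the size seen in KLF5 would not pass the test. With the replicate number as a block, KLF6 was called against vehicle for 100 pM at both times and for 10 nM at 18 h. It was then also called between the doses at 6 h and between the times at 100 pM and at 10 nM. KLF4, KLF10 and KLF13 also had replicate 1 higher in 6 of 6 groups, with ratios of 1.13 to 1.89, 1.18 to 1.47 and 1.26 to 2.25. Of all tested genes, 21.1% had replicate 1 higher in 6 of 6 groups and 20.4% had replicate 3 higher. KLF9 and KLF15 had replicate 1 higher in 3 of 6 groups each. The mitochondrial share of counts was the other way round, higher in replicate 3 in 6 of 6 groups. What the replicate numbers stand for is not given in the labels.

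**Figure D3:**
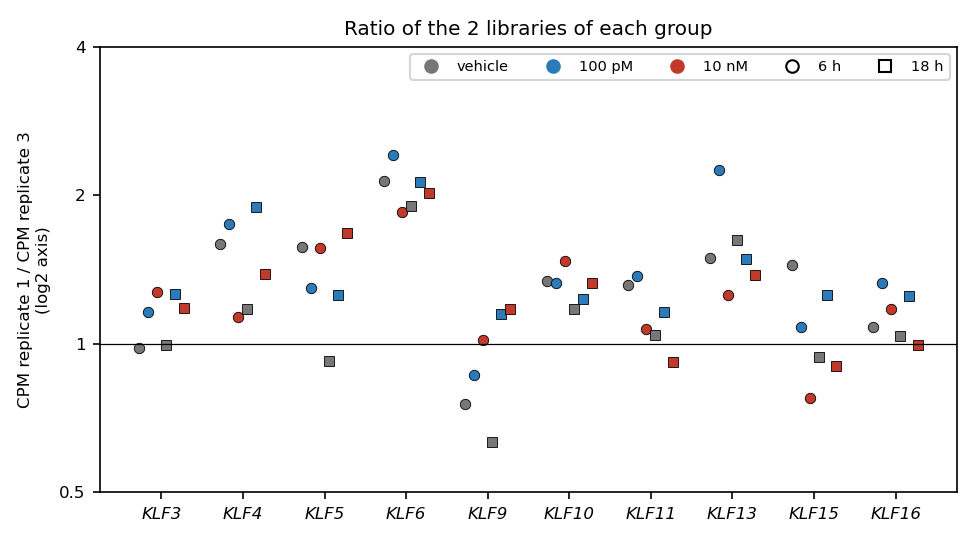
Ratio of the level in replicate 1 to that in replicate 3 (vertical axis, log2 scale) for each KLF gene and each of the 6 groups, coloured by dose, with circles for 6 h and squares for 18 h. All 6 points of KLF6 lie between 1.85 and 2.41, whereas those of KLF9 lie between 0.632 and 1.18, on both sides of 1.

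KLF15 had the largest fold changes of the 10 genes in each comparison with vehicle except 10 nM at 6 h, where KLF4 and KLF15 were alike in size (2.48 ± 0.39 and 2.45 ± 0.23). At 6 h KLF15 read 1.22 and 0.845 CPM in the vehicle libraries, 8.05 and 7.42 CPM in those of 100 pM, and 4.95 and 6.38 CPM in those of 10 nM. After 18 h the vehicle libraries held 0.839 and 0.894 CPM, 100 pM 7.92 and 6.31 CPM and 10 nM 6.63 and 7.36 CPM. The lowest treated library was far above the highest vehicle library, and the 2 doses overlapped at 18 h but not at 6 h, where both 100 pM libraries were the higher ones. KLF15 was higher by 2.90 ± 0.23 at 100 pM (7.47-fold, edgeR adjusted p = 0.000241) and by 2.45 ± 0.23 at 10 nM (5.47-fold, edgeR adjusted p = 7.09e-05) after 6 h. After 18 h it was higher by 3.03 ± 0.24 (8.18-fold, edgeR adjusted p = 0.000176) and by 3.01 ± 0.24 (8.05-fold, edgeR adjusted p = 3.41e-05). All 4 calls were kept under each of their 9 alternatives. The difference between the doses was -0.45 at 6 h (95% interval -0.96 to 0.06) and -0.02 at 18 h (-0.53 to 0.48), so at 18 h a difference beyond 0.53 in either direction lies outside the interval. Neither was called, but with the replicate number as a block the difference at 6 h was.

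KLF9 had, of the 10 genes, the largest difference between the doses at 6 h and the largest difference between the responses at 18 h and 6 h, in size. At 6 h it read 5.14 and 6.81 CPM in the vehicle libraries, 16.9 and 19.6 CPM in those of 100 pM, and 8.47 and 8.32 CPM in those of 10 nM. By 18 h vehicle held 4.05 and 6.42 CPM, 100 pM 16.4 and 14.2 CPM and 10 nM 20.6 and 17.5 CPM. The 10 nM libraries of 6 h thus lay just above vehicle and below all other treated libraries. KLF9 was higher by 1.61 ± 0.23 at 100 pM (edgeR adjusted p = 0.00466) after 6 h and by 1.55 ± 0.23 (edgeR adjusted p = 0.00390) after 18 h. At 10 nM it was not called after 6 h (0.49 ± 0.22, edgeR adjusted p = 0.113) and was higher by 1.86 ± 0.23 after 18 h (edgeR adjusted p = 0.000359). With the replicate number as a block, KLF9 was also called higher at 10 nM after 6 h. The call at 100 pM after 6 h was lost without vehicle replicate 1 (edgeR adjusted p = 0.0549), and both calls at 18 h were kept under each of their 9 alternatives.

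For 10 nM against 100 pM at 6 h, 1 of the 10 KLF genes was called higher (KLF11) and 1 lower (KLF9), where 37% of all tested genes were called (20.1% higher and 16.8% lower). KLF9 was lower at 10 nM (log2 difference -1.12 ± 0.22, 0.461-fold, edgeR adjusted p = 0.00444), and this call was kept under each of its 9 alternatives, with an adjusted p of at most 0.0347. At 18 h, 0 of 10 were called between the doses, in a comparison that called 26.2% of all tested genes (14.8% higher and 11.4% lower). DESeq2 also called 0 there, and 2 of the 10 (KLF11 and KLF16) had an unadjusted p under 0.05 in edgeR. KLF9 then differed by 0.31 (95% interval -0.22 to 0.85). With the replicate number as a block, 4 KLF genes were called higher and 4 lower between the doses at 6 h, where 59.3% of all tested genes were called. At 18 h that fit called 3 higher and 1 lower (KLF10, KLF11, KLF13 and KLF16), where 50.2% of all tested genes were called.

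Between 6 h and 18 h of vehicle, 0 of 10 KLF genes and 0% of all tested genes were called by edgeR, and DESeq2 called 0 of the 10. Without adjustment, 178 of all tested genes and 1 of the 10 (KLF11, 0.44 ± 0.17) had p under 0.05. At 100 pM the step from 6 h to 18 h also gave 0 calls among the 10 by both tools, where 1.18% of all tested genes were called by edgeR (0.526% higher and 0.656% lower), and 0 of the 10 had an unadjusted p under 0.05. At 10 nM, KLF3 and KLF9 were called higher at 18 h and 0 lower, where 24.5% of all tested genes were called (11.4% higher and 13.1% lower). KLF16 differed there by -0.48 ± 0.15 (edgeR adjusted p = 0.0524). It was called by DESeq2, without the filter on low counts and with the replicate number as a block. KLF9 rose from 6 h to 18 h of 10 nM by 1.18 ± 0.22 (2.27-fold, edgeR adjusted p = 0.00625), which was kept under each of the 8 alternatives.

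The difference of the 18 h response from the 6 h response was tested for each dose. For 10 nM, 1 of 10 KLF genes was called, KLF9 (1.37 ± 0.32, edgeR adjusted p = 0.0307), where 10.5% of all tested genes were called (4.55% higher and 5.99% lower). This call was kept under 6 of 12 alternatives: it was lost when any of 6 of the 8 libraries was left out, with an adjusted p of 0.0600 to 0.108, and was kept without vehicle replicate 1 of 6 h and without vehicle replicate 3 of 18 h. Its size ranged from 1.08 to 1.74 over the alternatives. For 100 pM, 0 of 10 were called by edgeR and by DESeq2, where edgeR called 0.0144% of all tested genes, and 0 of the 10 had an unadjusted p under 0.05. KLF9 then differed by -0.06 (95% interval -0.83 to 0.71) and KLF15 by 0.13 (-0.66 to 0.92).

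Of the other SIN3A-binding genes, KLF11 and KLF16 were called in the main fit, and KLF10 and KLF13 were not. KLF11, also known as a gene that TGF-beta induces, read at 6 h 49.9 and 37.8 CPM in the vehicle libraries, 47.4 and 34.5 CPM in those of 100 pM, and 65.7 and 61.2 CPM in those of 10 nM. At 18 h vehicle held 60.7 and 58.2 CPM, 100 pM 55.2 and 47.5 CPM and 10 nM 68.3 and 74.3 CPM. The 10 nM libraries were the highest at each time, and the 100 pM libraries did not lie above vehicle. KLF11 was higher at 10 nM after 6 h than in vehicle (0.53 ± 0.17, edgeR adjusted p = 0.0340) and than at 100 pM (0.63 ± 0.17, edgeR adjusted p = 0.0190). The first call was lost without vehicle replicate 3 (edgeR adjusted p = 0.206), without either 10 nM library (0.136 and 0.0646) and in the fit of 6 h alone (0.0805). The second was lost without replicate 3 at 100 pM (0.0948), without replicate 1 at 10 nM (0.0898) and in the fit of 6 h alone (0.0584). At 18 h the difference between the doses was 0.47 ± 0.17 (edgeR adjusted p = 0.0732).

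KLF16, a repressor found in most tissues, read at 6 h 45.2 and 41.8 CPM in the vehicle libraries, 54.5 and 40.9 CPM in those of 100 pM, and 64.5 and 54.7 CPM in those of 10 nM. At the later time vehicle held 53.9 and 52.0 CPM, 100 pM 62.8 and 50.3 CPM and 10 nM 42.7 and 43.0 CPM. The 10 nM libraries were the highest of their time at 6 h and the lowest at 18 h. The rise at 6 h was 0.45 ± 0.15 (edgeR adjusted p = 0.0411), and the value at 18 h was -0.31 ± 0.15 (edgeR adjusted p = 0.160). The call at 6 h was lost without either vehicle library (edgeR adjusted p = 0.0882 and 0.177), without replicate 1 at 10 nM (0.216) and in the fit of 6 h alone (0.0729). The test of the difference between the 2 times gave -0.76 ± 0.22 (edgeR adjusted p = 0.0585), which DESeq2 called. KLF16 shares 483 exon bases with a gene on the opposite strand, KLF11 416 and KLF3 266. The strand setting of the counting is not given in the sources used here, so reads from these stretches cannot be told apart.

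KLF13, a factor of lymphocyte and heart gene expression, was not called in the main fit. With the replicate number as a block, it was called for 10 nM against vehicle and against 100 pM at both times. Its 10 nM libraries were the highest of each time. After 6 h its levels ran from 16.9 to 25.3 CPM under vehicle, from 16.4 to 36.9 CPM under 100 pM and from 38.8 to 48.9 CPM under 10 nM. After 18 h they ran from 19.6 to 31.9, from 25.4 to 37.9 and from 49.2 to 67.7 CPM. Against vehicle, 10 nM differed by 1.05 ± 0.41 at 6 h (edgeR adjusted p = 0.0694) and by 1.18 ± 0.41 at 18 h (edgeR adjusted p = 0.0546), and DESeq2 called both. KLF10, the first gene known as TGF-beta inducible early gene, lay between 33.7 and 60.4 CPM in all 12 libraries. In the main fit it was not called in any of the 11 comparisons. Its value furthest from 0 against vehicle was 0.31 (95% interval -0.29 to 0.91) at 10 nM after 18 h. With the replicate number as a block, that value was called.

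KLF3, the CtBP-binding repressor among the 10, was the gene that fell. At 6 h it read 48.0 and 48.9 CPM in the vehicle libraries, 48.1 and 41.5 CPM in those of 100 pM, and 39.3 and 30.8 CPM in those of 10 nM. After 18 h the vehicle libraries held 53.4 and 53.7 CPM, 100 pM 62.1 and 49.3 CPM and 10 nM 56.4 and 47.6 CPM. The 10 nM libraries of 6 h were the 2 lowest of all 12. KLF3 fell by 0.47 on the log2 scale at 10 nM after 6 h (SE 0.15, edgeR adjusted p = 0.0370). It was higher at 18 h than at 6 h of 10 nM by 0.57 ± 0.15 (edgeR adjusted p = 0.0271). The fall was lost without either vehicle library (edgeR adjusted p = 0.0998 and 0.125) and without replicate 3 at 10 nM (0.195). The later rise was lost without replicate 3 of 10 nM at 6 h (0.140) and without replicate 1 of 10 nM at 18 h (0.137).

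Levels of different genes were compared per length, as CPM per kilobase of exon (exon lengths from GENCODE on GRCh38). In vehicle at 6 h the order was KLF6 at 23.5, KLF16 at 14.7, KLF10 at 10.0, KLF11 at 9.56, KLF3 at 7.69, KLF4 at 5.85, KLF5 at 3.20, KLF13 at 2.24, KLF9 at 1.15 and KLF15 at 0.363 CPM per kilobase (means of 2 libraries). In this order the libraries of KLF6 and KLF16 overlapped, as did those of KLF10 and KLF11 and those of KLF5 and KLF13. At 10 nM after 6 h KLF4 led at 32.7 ± 2.92 (SD, n = 2), above KLF6 at 21.8 ± 9.22 without overlap. In the other 3 progestin groups KLF4 was second to KLF6, whose libraries overlapped with its own. KLF15 was last in every group except 10 nM at 6 h, where it stood at 1.99 and KLF9 at 1.62 CPM per kilobase.

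For the 3 members whose group means spread most (KLF15, KLF4 and KLF9), the genes most alike in pattern were found by Pearson's r of log2 CPM over the 12 libraries, which share the groups and the replicate numbers. For KLF15 these were PTP4A2 (r = 0.987), ADD3 (0.986) and CHST11 (0.985). For KLF4 they were ATP6V0E1 (0.981), CALM2 (0.981) and CLMN (0.980). For KLF9 they were TSC22D1 (0.969), CSNK1A1 (0.960) and NEDD4L (0.957). TSC22D1, a gene that TGF-beta and steroids induce, showed the low 10 nM value of 6 h as KLF9 did: after 6 h its mean was 108 ± 4.99 CPM under vehicle, 230 ± 7.58 CPM under 100 pM and 139 ± 1.65 CPM under 10 nM, and it was 223 ± 16.0 CPM at 10 nM after 18 h (SD, n = 2). NEDD4L, a ubiquitin ligase, stood in the same groups at 61.2 ± 0.787, 126 ± 6.33, 86.7 ± 5.02 and 126 ± 1.56 CPM.

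The table listed 7 other KLF genes, and 5 of them were tested. At 10 nM after 6 h, 1 was called higher (KLF17) and 2 lower (KLF8 and KLF12), where 42% of all tested genes were called, and the median of the 5 was 0.02. KLF8, a CtBP-binding gene like KLF3, read 54.5 and 67.9 CPM in the vehicle libraries, 70.4 and 88.8 CPM in those of 100 pM and 31.9 and 38.8 CPM in those of 10 nM after 6 h. At 18 h it stood at 48.0 and 63.1, 49.4 and 53.3, and 68.9 and 77.0 CPM in the same order. Its 10 nM libraries were the 2 lowest of all 12 at 6 h and were above both vehicle libraries at 18 h. KLF8 fell by 0.79 on the log2 scale against vehicle at 6 h (SE 0.18, edgeR adjusted p = 0.00734), a call lost without vehicle replicate 3 (0.0546) and without replicate 1 at 10 nM (0.0586). Against 100 pM it fell by 1.17 (SE 0.18, edgeR adjusted p = 0.00119), and it rose by 1.04 ± 0.18 from 6 h to 18 h of 10 nM (edgeR adjusted p = 0.00439), both kept under each alternative.

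KLF12, the third CtBP-binding gene, read 10.9 and 5.51 CPM in the vehicle libraries, 9.20 and 4.43 CPM in those of 100 pM and 2.38 and 1.35 CPM in those of 10 nM after 6 h. At 10 nM after 18 h it read 10.7 and 7.72 CPM. It fell by 2.13 on the log2 scale at 10 nM against vehicle at 6 h (SE 0.60, edgeR adjusted p = 0.0194), which was lost without vehicle replicate 1 (0.109) and without replicate 3 at 10 nM (0.115). KLF3, KLF8 and KLF12 each had their 2 lowest libraries in the 10 nM group of 6 h, as did 13.0% of all tested genes. KLF17 was close to 0: the vehicle libraries of 6 h had 1 count each and the 10 nM libraries 16 each. The ratio of the summed counts per library size was 17.5 (exact 95% binomial interval 4.47 to 151, for counting error only). KLF7, an activator, was called at 10 nM after 18 h (0.46 ± 0.10, edgeR adjusted p = 0.00603), a call lost without vehicle replicate 3 (0.0531). At 100 pM, 0 of these 5 genes were called at either time by edgeR or DESeq2, where edgeR called 3.48% of all tested genes at 6 h and 10.5% at 18 h. Of the 5, 2 had an unadjusted p under 0.05 at 6 h and 0 at 18 h, and the medians were 0.24 and 0.21.

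**Figure D4:**
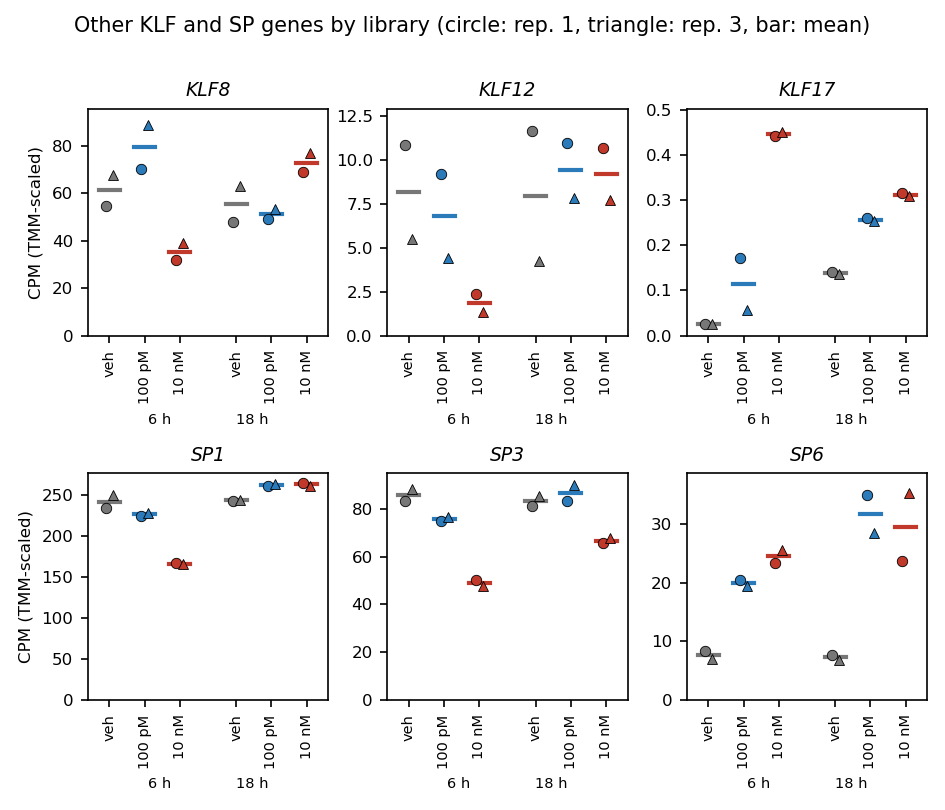
Level of KLF8, KLF12, KLF17, SP1, SP3 and SP6 (vertical axis, CPM after scaling by TMM, starting at 0) in the 12 libraries by dose and time, drawn as for the 10 KLF genes. In KLF8, KLF12, SP1 and SP3 the 2 libraries of 10 nM at 6 h are the lowest of the 12, and in SP6 every treated library lies above every vehicle library.

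Of 9 SP genes 5 were tested. SP1 and SP3, which bind GC boxes in most cells, fell at 10 nM after 6 h together with SP4, while SP6, a gene of tooth and skin development, rose in each comparison with vehicle. SP3 read 83.1 and 88.1 CPM in the vehicle libraries, 75.0 and 76.4 CPM in those of 100 pM and 50.0 and 47.5 CPM in those of 10 nM after 6 h. SP3 fell by 0.81 on the log2 scale (SE 0.07, edgeR adjusted p = 4.53e-05) and SP1 by 0.54 (SE 0.07, edgeR adjusted p = 0.000282), both kept under each alternative. SP4 fell by 0.43 (SE 0.11, edgeR adjusted p = 0.0104), which was lost without vehicle replicate 3 (0.0719) and without either 10 nM library (0.0524 and 0.0574). After 18 h of 10 nM, SP3 differed from vehicle by -0.32 ± 0.07 (edgeR adjusted p = 0.00852), which was lost without vehicle replicate 3 (0.0633) and without replicate 1 at 10 nM (0.0510). SP6 was higher by 1.38 ± 0.20 and 1.67 ± 0.20 at 6 h and by 2.13 ± 0.20 and 2.02 ± 0.20 at 18 h for 100 pM and 10 nM. Of these, the value for 100 pM at 6 h lost its call without vehicle replicate 3 (edgeR adjusted p = 0.0574). The median of the 5 SP genes was -0.02 and -0.43 at 6 h and 0.06 and 0.11 at 18 h.

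The genes of KLF partners were counted in the same way. Of 11 corepressor and coactivator genes, 0 were called at 100 pM after 6 h by edgeR or DESeq2, where edgeR called 3.48% of all tested genes. Of the 11, 1 had an unadjusted p under 0.05 there. At 10 nM after 6 h 4 rose and 1 fell (median -0.03), where 42% of all tested genes were called. SAP30, a subunit of the SIN3 deacetylase complex, was higher by 1.98 ± 0.16 at 10 nM after 6 h, by 1.30 ± 0.16 at 100 pM after 18 h and by 1.60 ± 0.16 at 10 nM after 18 h. KAT2B, an acetyltransferase, was higher at 10 nM by 0.86 ± 0.11 after 6 h and by 1.33 ± 0.11 after 18 h. These 5 calls were kept under each alternative. SIN3B, a scaffold of the same complex as SAP30, was lower after 18 h, at -0.46 ± 0.07 for 100 pM and -0.37 ± 0.07 for 10 nM. The first was lost without vehicle replicate 1 (edgeR adjusted p = 0.0561) and in the fit of 18 h alone (0.0507). At 18 h, 1 rose and 1 fell at 100 pM, and 3 rose and 1 fell at 10 nM, where 10.5% and 34.1% of all tested genes were called.

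Of 9 ubiquitin ligases and deubiquitinases known for KLF proteins, 0 were called at 100 pM at either time by edgeR or DESeq2. There edgeR called 3.48% of all tested genes at 6 h and 10.5% at 18 h. Of the 9, 0 at 6 h and 2 at 18 h had an unadjusted p under 0.05. At 10 nM 1 rose and 1 fell after 6 h, and 2 rose and 0 fell after 18 h, where 42% and 34.1% of all tested genes were called. SIAH1, a ubiquitin ligase, was higher at 10 nM by 0.88 ± 0.12 after 6 h and by 1.30 ± 0.12 after 18 h, and BTRC, the substrate receptor of another ligase, was at -0.45 ± 0.07 after 6 h. All 3 calls were kept under each alternative.

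Of 12 amino acid breakdown genes linked with KLF15, 1 was called at 100 pM at each time, PRODH, the first enzyme of proline breakdown. It was higher by 0.85 ± 0.15 at 6 h and by 1.02 ± 0.15 at 18 h. At 10 nM after 6 h PRODH was lower than vehicle, at -0.56 ± 0.15, the opposite direction to KLF15. Both 6 h calls of PRODH were lost when any of the 4 libraries compared was left out, with edgeR adjusted p up to 0.123 at 100 pM and 0.0924 at 10 nM. HPD, an enzyme of tyrosine breakdown, was higher at 10 nM by 3.34 ± 0.42 after 6 h and by 3.82 ± 0.45 after 18 h, kept under each alternative. In all, 2 rose and 2 fell at 10 nM after 6 h and 2 rose and 0 fell after 18 h, with medians of 0.08 and 0.22. Among all tested genes 42% and 34.1% were called in these comparisons, and 3.48% and 10.5% at 100 pM.

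Of 10 TGF-beta and SMAD genes, which act upstream of KLF10 and KLF11, 0 rose and 3 fell at 100 pM at each time, where 0.606% of all tested genes were called lower at 6 h and 3.89% at 18 h. At 10 nM 2 rose and 6 fell after 6 h, and 1 rose and 5 fell after 18 h, with medians of -0.59 and -0.49, where 19.4% and 15.2% of all tested genes were called lower. The ligand gene TGFB2 was lower, at -1.11 ± 0.21 and -3.76 ± 0.24 at 6 h and -2.11 ± 0.21 and -4.38 ± 0.24 at 18 h, for 100 pM and 10 nM. SMAD3, which carries the signal to the nucleus, was lower, at -0.77 ± 0.14 and -1.51 ± 0.15 at 6 h and -0.68 ± 0.14 and -0.97 ± 0.14 at 18 h. The genes that fell also included 2 that restrain the pathway. SMAD7, an inhibitory SMAD, was at -0.68 and -0.80 at 6 h and -0.86 and -0.80 at 18 h, for 100 pM and 10 nM. SKIL, a corepressor of SMAD proteins, was at -0.72 at 10 nM after 6 h. TGFBR1, the receptor kinase, was higher by 1.23 ± 0.12 at 10 nM after 6 h. All 3 calls at 100 pM after 6 h were lost in fits that left out a library, which hold 1 library in a group. SMAD3 and SMAD7 lost their calls without each of the 4 libraries compared, and TGFB2 without each of them but vehicle replicate 3. SMAD3 at 100 pM after 18 h lost its call without vehicle replicate 1 (0.132), without replicate 3 at 100 pM (0.115) and in the fit of 18 h alone (0.0997). In the main fit KLF10 was not called in any comparison, and KLF11 was called only at 10 nM after 6 h. With the replicate number as a block, KLF10 was called at 10 nM after 18 h against vehicle, against 100 pM and against 6 h. KLF11 was then also called between the doses at 18 h.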

How the data were processed

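Total RNA of 12 T47D samples was sequenced from Nextera libraries. The deposited table holds raw counts of reads per gene symbol made by the authors, who name STAR, DESeq2 and hg19 per the submitters' processing notes; their versions, the counting tool, annotation and strandedness: not given in the sources used here. Of 20114 symbols, 2709 had no count. All 12 columns were used, and 0 other per-sample columns were left out.

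Statistics were run in R 4.3.3 with edgeR 4.0.16 (on limma 3.58.1), and DESeq2 1.42.0 served as an alternative. After filterByExpr (13872 genes left) and TMM scaling, edgeR's robust quasi-likelihood F test (two-sided) was applied in 1 fit with a coefficient for each of 6 groups (6 residual degrees of freedom). A call is a Benjamini-Hochberg adjusted p under 0.05 over all genes tested in a comparison. Of the 11 comparisons, 6 are between doses, 3 between times and 2 are differences of responses. CPM are counts scaled to a common total of each library after TMM. The pipeline was run on simulated data with independent libraries. These held no difference shared by replicate number, so that run does not test the main fit under such sharing.

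The KLF genes and the companion lists were chosen with earlier results of these data known. All 10 KLF genes are named, with values per library where called between doses; from each list up to 4 called genes with the smallest adjusted p were eligible. FKBP5, TSC22D3 and PGR are always given. Pattern likeness was computed on log2 CPM (prior count 2) for genes averaging 2 or more. Alternatives were DESeq2, relative log expression scaling, no filter on low counts, the replicate number as a block, the libraries of a time alone, and leaving out each library. Where that left a group with 1 library, its spread was taken from the other groups.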

Additional observations from a re-analysis of the deposited data

Results flagged for a closer look

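The response to 10 nM differed between 18 h and 6 h, by a test of the difference itself in edgeR, for KLF9 and for 6 genes of the companion lists. This test called 10.5% of all tested genes. It called 1 of the 10 KLF genes, 1 of 5 other KLF genes, 2 of 5 SP genes, 1 of 12 amino acid breakdown genes and 2 of 10 TGF-beta and SMAD genes. Of the 11 corepressors and coactivators and the 9 ligases and deubiquitinases it called 0. KLF9 had a larger response at 18 h by 1.37 ± 0.32 on the log2 scale (edgeR adjusted p = 0.0307), from vehicle levels of 5.98 ± 1.18 CPM at 6 h and 5.24 ± 1.67 CPM at 18 h and 10 nM levels of 8.40 ± 0.105 and 19.0 ± 2.17 CPM (SD, n = 2). KLF8 differed by 1.18 ± 0.25 (edgeR adjusted p = 0.0234), from below vehicle at 6 h to above it at 18 h. SP1 differed by 0.65 ± 0.09 (edgeR adjusted p = 0.00533) and SP3 by 0.49 ± 0.10 (edgeR adjusted p = 0.0199). SKIL, a corepressor of SMAD proteins, differed by 0.79 ± 0.14 (edgeR adjusted p = 0.0112), and PRODH differed by 0.89 ± 0.21 (edgeR adjusted p = 0.0345). TGFBR1 had a smaller response at 18 h, with a difference of -0.71 ± 0.17 (edgeR adjusted p = 0.0337). Of these 7 values, that of SP1 was called under all 12 alternatives, that of SKIL under 11, KLF8 under 8, SP3 and TGFBR1 under 7 each, and KLF9 and PRODH under 6 each. With 2 libraries in each group, no library could be tested as standing apart from its group.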

How the results depend on the processing

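No called value of a KLF gene changed its direction under any alternative run: of 20 calls among 110 values (10 genes, 11 comparisons), 10 were kept under every alternative. Of the 90 values not called, 47 took the other sign under some alternative, 46 of them under 0.5 in size on the log2 scale and 4 of them outside leaving out a library. Leaving out a library moved the number of KLF genes called from 3 to between 1 and 3 for 100 pM at 6 h (all genes: from 483 to between 221 and 308), from 6 to between 2 and 4 for 10 nM at 6 h (from 5826 to between 4070 and 4579), from 2 to between 1 and 4 for 10 nM against 100 pM at 6 h (KLF13 and KLF16 were gained without replicate 1 of 100 pM; all genes from 5127 to between 3281 and 4242), from 3 to between 2 and 3 for 100 pM at 18 h (from 1450 to between 512 and 845), from 2 to between 1 and 2 for the times at 10 nM (from 3393 to between 1817 and 2282), and from 1 to between 0 and 1 for the response to 10 nM (from 1462 to between 467 and 860). The other 5 counts of KLF genes did not move. In a fit of a time alone 1 was called at 6 h and 1 (KLF11) at 18 h for 10 nM against 100 pM, beside 2 and 0. DESeq2 called 2 for the response to 10 nM (KLF9 and KLF16) beside 1. For the times at 10 nM, DESeq2 and the fit without the filter on low counts each gained KLF16. Scaling by relative log expression changed no call among the KLF genes. For the times at 100 pM, 44.5% of all calls were higher with edgeR and 56.0% with DESeq2. With 2 libraries a group, SEs of 0.15 (KLF3) to 0.62 (KLF6) limit what can be seen. The cause of these changes was not tested.

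With the replicate number as a block, the number of KLF genes called went from 3 to 5 for 100 pM at 6 h (12.2% of all genes), from 2 to 8 for 10 nM against 100 pM at 6 h (59.3%), from 3 to 5 for 100 pM (34.1%) and from 3 to 8 for 10 nM (56.0%) at 18 h, from 0 to 4 between the doses at 18 h (50.2%), from 0 to 2 for the times at 100 pM (22.2%), from 2 to 5 for the times at 10 nM (49.2%), and from 1 to 3 for the response to 10 nM (35.1%). For 10 nM at 6 h it went from 6 to 8 (62.4%). Gained with the block were KLF5 and KLF6 for 100 pM at each time, and KLF9 and KLF13 for 10 nM at 6 h. For 10 nM at 18 h they were KLF5, KLF6, KLF10, KLF13 and KLF16. Between the doses they were KLF3, KLF4, KLF6, KLF13, KLF15 and KLF16 at 6 h, and KLF10, KLF11, KLF13 and KLF16 at 18 h. Between the times they were KLF3 and KLF6 at 100 pM, and KLF6, KLF10 and KLF16 at 10 nM. For the response to 10 nM they were KLF3 and KLF16. The common spread (biological coefficient of variation in edgeR) went from 0.163 to 0.0678. Libraries with the same number deviated together across genes (r of 0.464 to 0.677 over 15 pairs of groups). The data thus show differences shared by replicate number, which the main fit leaves in its spread. A value not called in that fit is therefore no evidence that the gene did not change. No label says what the numbers 1 and 3 share, and the design does not state a pairing.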

Other observations

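Within the 10 KLF genes, levels over the 12 libraries moved together most closely for KLF4 and KLF15 (Pearson's r of log2 CPM 0.895), KLF4 and KLF5 (0.892) and KLF9 and KLF15 (0.873). KLF3 with KLF15 had the lowest value (-0.22). These values describe libraries that share groups and replicate numbers, and no test was made.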
